A study of Mus musculus with 10 samples.

Results

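Retinal ganglion cells are the output neurons of the eye, and their axons form the optic nerve. In strong light the photoreceptors are the cells classically damaged, whereas ganglion cells lie at the inner surface of the retina and are best known for their response to injury of their axons. That response can be read from RNA in 2 ways: the genes that mark a ganglion cell tend to lose expression when the cell is injured or dies, while a growth and repair program with transcription factors, growth cone proteins and small stress proteins is switched on. The genes described here were 7 identity genes (*Pou4f1*, *Rbpms*, *Thy1*, *Sncg*, *Nefl*, *Nefm* and *Opn4*) and 3 injury genes (*Sox11*, *Gap43* and *Sprr1a*), taken by symbol from the 54532 genes of the deposited table, and the question was how each side stood after 1 day of bright light.

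All mice were BALB/c, an inbred strain whose albino eyes lack screening pigment, were 2 months old and spent 12 h in the dark first. They were then kept for 1 day either in normal light of 200 lux (NL, n = 5 retinas, numbered 1, 4, 5, 7 and 8 in the labels) or in light of 15000 lux (LD, n = 5 retinas, numbered 1, 4, 6, 7 and 8). RNA came from whole neural retina, so that a lower level of a ganglion cell gene could mean fewer ganglion cells or less RNA per cell, which cannot be told apart. The retinas of a group are called biological replicates in the study but are not tied to single mice in the sources used here, and the p-values measure the spread between these retinas.

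Levels are in FPKM, fragments per kilobase of gene scaled to library size. The whole reads behind each value could be recovered, with totals between 21343389 and 26832535 reads under NL (median 22053437) and between 18965090 and 23378090 after LD (median 21375137). Of the 20 pairs of retinas within a group, 3 were much closer than the others, NL-5 with NL-7, LD-1 with LD-7 and LD-4 with LD-6. Their chi-square per gene was 2.65 to 3.65, against 12.2 to 43.4 in the other 17 pairs. Whether the retinas of a close pair came from the same mouse is not stated. The main fit and the exact permutation tests count them as separate retinas. *Xist*, the RNA of the inactive X chromosome, had 57965 to 89680 reads in NL-4, NL-8, LD-4 and LD-6 and 3 to 43 reads in the other retinas, so that 2 of 5 retinas in each group carried it. Rod photoreceptor genes fell: all 7 rod markers were called lower after LD by the test given next, with a median log2 fold change of -2.22 and a sum of 7887 to 9633 FPKM in NL and 1162 to 2369 FPKM in LD retinas.

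Both groups entered limma, a linear model, on log2(FPKM + 0.1), over 24508 genes that reached 0.1 FPKM in 5 or more retinas, and Benjamini-Hochberg adjustment ran over all of them. To be called, a gene needed an adjusted p under 0.01 together with more than a 2-fold difference, and a looser limit asked for an adjusted p under 0.05 alone. None of the 7 identity genes was called, where 6.51% of all genes tested were (4.13% higher and 2.37% lower). None of the 7 passed the looser limit, which 27.8% of all genes tested did (14.5% higher and 13.4% lower). Of the 3 injury genes, none was called, and *Sox11* and *Gap43* were higher at the looser limit, a direction that 14.5% of all genes tested took. *Gap43* was also the 1 gene of the 10 whose groups did not overlap, as in 22.4% of all genes tested (11.8% with LD higher and 10.6% with LD lower). All 10 genes passed the filter on low values, the 7 identity genes with at least 54 reads in every retina.

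**Figure D1:**
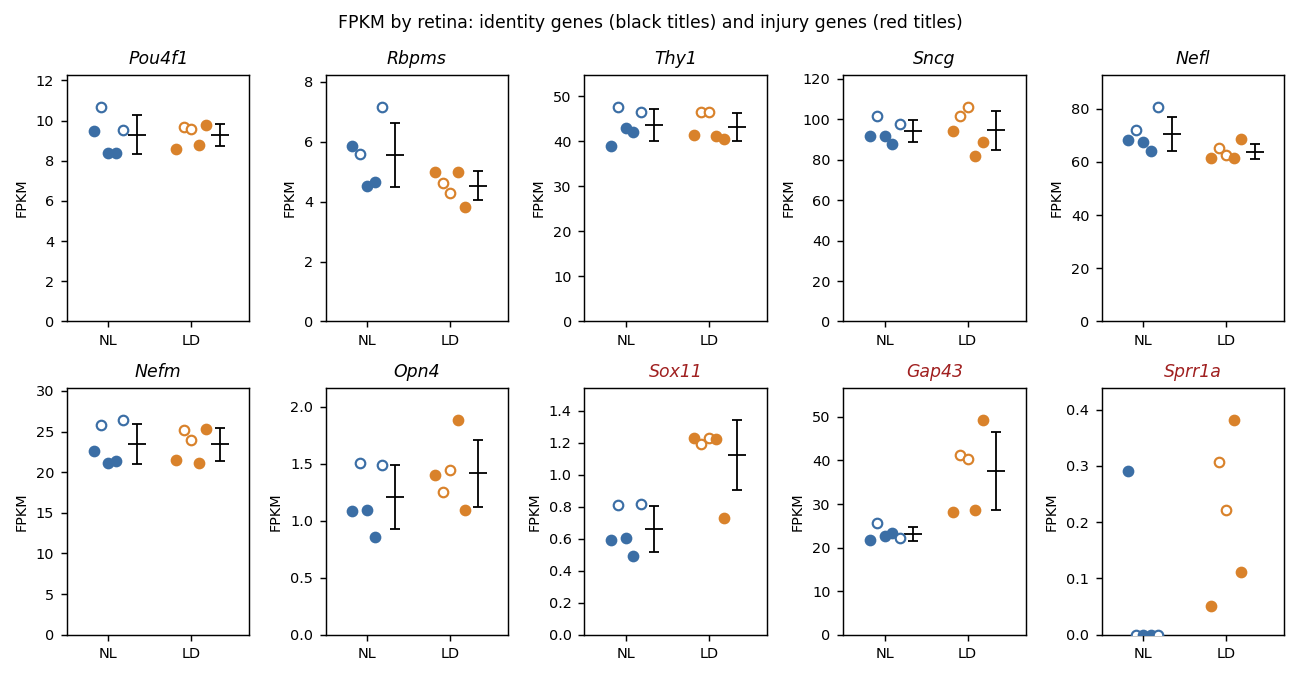
Each panel shows 1 gene, with the level in FPKM on a linear axis from 0 for the 5 NL retinas (blue) and the 5 LD retinas (orange). Points are single retinas, open where *Xist* reads were present, and black bars give the mean and SD of a group, left out for *Sprr1a*, which was at 0 in most NL retinas. The identity genes (black titles) overlap between the groups in every panel, while among the injury genes (red titles) *Gap43* separates completely.

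The identity genes spanned the range from abundant cytoskeletal and synaptic proteins to a rare photopigment. Under NL the order of mean level was *Sncg* (94.0 ± 5.42 FPKM, SD, n = 5), *Nefl*, *Thy1*, *Nefm*, *Pou4f1*, *Rbpms* and *Opn4* (1.21 ± 0.283 FPKM). The ranges of the 5 NL retinas did not overlap between any neighbours in this order. *Gap43* fell into the order beside *Nefm*, with 23.1 ± 1.56 FPKM against 23.5 ± 2.45 FPKM and overlapping ranges. *Sox11* (0.663 ± 0.144 FPKM) and *Sprr1a* lay below all identity genes.

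*Pou4f1* (ENSMUSG00000048349, GRCm38 chr14:104461676-104467999, minus strand) encodes BRN3A, a POU-domain transcription factor that is made in most ganglion cells. Its level in the NL retinas was 9.47, 10.7, 8.39, 8.37 and 9.54 FPKM in NL-1, NL-4, NL-5, NL-7 and NL-8, and in the LD retinas 8.60, 9.67, 9.60, 8.78 and 9.77 FPKM in LD-1, LD-4, LD-6, LD-7 and LD-8. All LD values lay inside the NL range. The means were 9.29 ± 0.964 and 9.28 ± 0.549 FPKM (SD, n = 5 each), and the log2 fold change was 0.00 (95% interval -0.16 to 0.17, adjusted p = 0.986 in limma). The interval corresponds to a change of -10.5% to 12.2% in *Pou4f1* RNA.

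*Rbpms* (ENSMUSG00000031586, chr8:33782643-33929863, minus strand) encodes an RNA-binding protein found in nearly every ganglion cell and in few other retinal neurons. In the order of retinas given for *Pou4f1*, it was at 5.84, 5.60, 4.53, 4.65 and 7.17 FPKM under NL and at 4.97, 4.61, 4.30, 4.98 and 3.80 FPKM after LD. NL-8 stood highest and LD-8 lowest, and the other retinas of both groups overlapped. The means were 5.56 ± 1.07 and 4.53 ± 0.495 FPKM, with a log2 fold change of -0.28 (95% interval -0.56 to 0.01, adjusted p = 0.141). This was the lowest fold change among the 7 identity genes and passed neither limit. Its family member *Rbpms2*, also a ganglion cell gene, had a mean of 8.94 ± 0.735 FPKM in NL and 7.59 ± 0.348 FPKM in LD retinas (log2 fold change -0.23, adjusted p = 0.0181), lower at the looser limit with overlapping retinas, and was named after its values were seen.

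*Thy1* (ENSMUSG00000032011, chr9:44043384-44048579, plus strand) encodes a glycolipid-anchored surface protein of ganglion cells and other neurons that is also a marker of T cells. Its values were 39.0, 47.7, 43.0, 42.0 and 46.5 FPKM under NL and 41.4, 46.6, 46.6, 41.2 and 40.4 FPKM after LD. Every LD value lay within the NL range, and the means of 43.6 ± 3.52 and 43.2 ± 3.08 FPKM gave a log2 fold change of -0.01 (95% interval -0.16 to 0.14, adjusted p = 0.918). Of the 6 T cell markers, *Cd3e*, *Cd3g* and *Cd3d*, the receptor subunits that define these cells, had at most 4 reads in any retina. *Lck*, a kinase of T cells, was the 1 marker above the filter and was called higher (0.360 ± 0.106 to 0.973 ± 0.162 FPKM, adjusted p = 8.17e-04). Summed, the 6 markers reached 0.328 to 0.842 FPKM in NL and 0.869 to 1.24 FPKM in LD retinas, where *Thy1* was at no less than 39.0 FPKM.

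*Sncg* (ENSMUSG00000023064, chr14:34370274-34374789, minus strand) encodes gamma-synuclein, a small presynaptic and axonal protein that is concentrated in ganglion cells. The retinas held 91.5, 101, 91.8, 87.7 and 97.4 FPKM under NL and 94.0, 102, 106, 81.8 and 88.9 FPKM after LD. The LD retinas held both the lowest and the highest of the 10 values, and the spread was wider after LD (9.72 against 5.42 FPKM, SD) around means of 94.5 and 94.0 FPKM. The log2 fold change was 0.00 (95% interval -0.16 to 0.17, adjusted p = 0.981). Among its close relatives, *Sncb*, the gene of beta-synuclein in presynaptic endings, was at 151 ± 12.6 and 157 ± 13.8 FPKM (log2 fold change 0.05, adjusted p = 0.695).

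*Nefl* (ENSMUSG00000022055, chr14:68083863-68089095, plus strand) and *Nefm* (ENSMUSG00000022054, chr14:68082590-68124846, minus strand) encode the light and medium chains of neurofilaments, which set the calibre of large axons. In the annotation they lie on opposite strands with 1108 shared exon bases, of 3380 in *Nefl* and 5782 in *Nefm*. The library kit in the labels does not mark strand and the counting program is not given in the sources used here, so reads from the shared bases cannot be assigned to either gene. *Nefl* was at 68.2, 72.0, 67.3, 63.9 and 80.7 FPKM under NL and at 61.6, 65.2, 62.5, 61.6 and 68.5 FPKM after LD. LD-8 and LD-4 lay inside the NL range and the other 3 LD retinas lay below it. The means were 70.5 ± 6.43 and 63.9 ± 2.97 FPKM, the log2 fold change was -0.14 (95% interval -0.28 to 0.00, adjusted p = 0.142), and the two-sided exact permutation p was 0.0556, where the smallest that 5 against 5 retinas can give is 0.00794. *Nefm* was at 22.7, 25.8, 21.2, 21.4 and 26.4 FPKM under NL and at 21.5, 25.2, 24.0, 21.1 and 25.3 FPKM after LD. Its groups overlapped throughout, with means of 23.5 ± 2.45 and 23.4 ± 2.00 FPKM and a log2 fold change of -0.00 (95% interval -0.18 to 0.18, adjusted p = 0.986).

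*Opn4* (ENSMUSG00000021799, chr14:34590618-34600142, minus strand) encodes melanopsin, the photopigment of the ganglion cells that sense light by themselves and set the clock and the pupil. Its values were 1.09, 1.51, 1.10, 0.859 and 1.49 FPKM under NL and 1.40, 1.25, 1.45, 1.88 and 1.09 FPKM after LD. LD-7 stood highest and NL-7 lowest, and the groups overlapped. With 54 to 114 reads in the NL and 72 to 127 in the LD retinas, counting alone would give a coefficient of variation of 11.2% and 10.3%, and the observed values were 23.4% and 21.0%. The log2 fold change of 0.22 had the widest interval of the identity genes (95% interval -0.19 to 0.63, adjusted p = 0.437), or 0.874-fold to 1.54-fold. *Opn4* shares 130 of its 2961 exon bases with *Gm49012*, an antisense gene with means of 0.0640 and 0.0167 FPKM. The other genes annotated within members, *Gm26632* and *Gm26978* in *Rbpms*, *Gm19216* in *Nefm* and *Mir6540* in *Gap43*, share 0 exon bases with them.

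Across the identity genes, the 95% interval of all 7 included no change and lay inside a 2-fold change in either direction, between 0.679-fold and 1.54-fold, and 3 of the 7 had a positive log2 fold change. The median was -0.00, beside -0.01 over all genes tested. These values rest on the scaling factor that the deposited values carry for each retina, 0.951 to 0.968 for NL and 1.041 to 1.069 for LD. Without it the median of all genes tested moved by 0.12 on the log2 scale and that of TPM by 0.10, and *Thy1* and *Nefm* changed sign (0.12 and 0.13 without the factor), *Pou4f1* and *Sncg* moved to 0.13 and 0.14, and *Rbpms* and *Nefl* to -0.14 and -0.00. No identity gene passed the looser limit under either scaling.

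**Figure D2:**
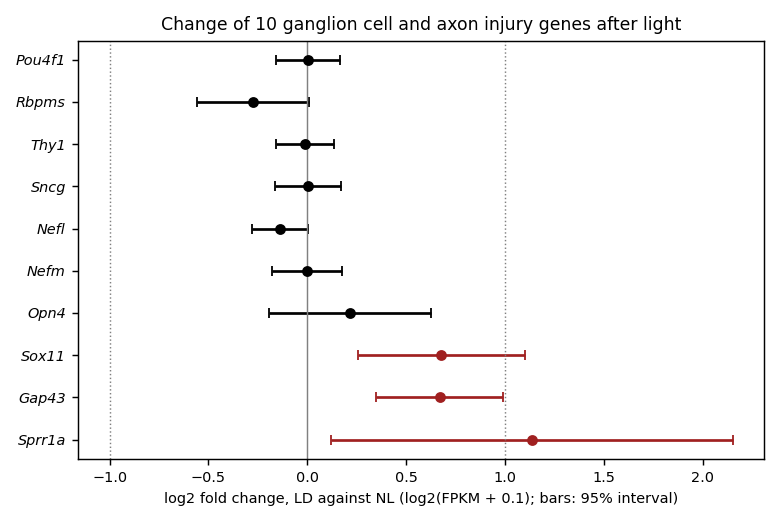
Points give the log2 fold change of LD against NL on log2(FPKM + 0.1) for the 10 genes, and bars the 95% interval from limma over 5 retinas per group, with dotted lines at a 2-fold change. The 7 identity genes (black) have intervals that include 0, from -0.56 to 0.63 at their extremes. The 3 injury genes (red) have intervals above 0, of which that of *Sprr1a* rests on at most 7 reads per retina. The intervals are not adjusted for the number of genes tested, and *Sprr1a* passed neither limit (adjusted p = 0.0936 in limma).

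Single retinas differed across the identity genes. Under NL, NL-4 was the highest retina for 4 of the 7 genes and NL-8 for the other 3, and NL-7 was the lowest for 4. Both of these high retinas carried *Xist*, and 6 of the 7 identity genes, all but *Rbpms*, were higher in both NL retinas with *Xist* than in the other 3. After LD the same held for 2 of the 7, *Thy1* (46.6 in both against 40.4 to 41.4 FPKM) and *Sncg* (102 to 106 against 81.8 to 94.0 FPKM). LD-4 and LD-6, the LD retinas with *Xist*, are also one of the 3 closest pairs, so *Xist* and that pairing cannot be told apart there. Since 2 of 5 retinas in each group carried *Xist*, taking it into the model as a covariate left every fold change as it was. After LD no retina was high or low throughout: LD-8 was the highest LD retina for 3 identity genes and the lowest for another 3, and LD-7 the highest for 2 and the lowest for 2.

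The injury genes are taken in order of their level. *Gap43* (ENSMUSG00000047261, chr16:42248442-42340651, minus strand) encodes growth-associated protein 43, a membrane phosphoprotein of growth cones that regrowing axons make in quantity. It was at 21.6, 25.7, 22.6, 23.3 and 22.2 FPKM in the NL retinas and at 28.2, 41.3, 40.2, 28.7 and 49.3 FPKM in the LD retinas. All LD values lay above all NL values. The mean went from 23.1 ± 1.56 to 37.6 ± 9.0 FPKM (SD, n = 5 each), a 1.59-fold rise on the log2(FPKM + 0.1) scale (log2 fold change 0.67, SE 0.14, 95% interval 0.35 to 0.99, adjusted p = 0.00590). It missed the call on its fold change. The exact permutation p of 0.00794 is the smallest that 5 against 5 retinas can give, with the closest pairs counted as separate retinas.

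The LD retinas spread more in *Gap43* than the NL retinas, with a coefficient of variation of 24.0% against 6.74%, a difference that was not tested. Counting alone would give 2.80% and 3.60%. LD-1 and LD-7, a closest pair, were at 28.2 and 28.7 FPKM, LD-4 and LD-6, the other LD pair, at 41.3 and 40.2 FPKM, and LD-8 was highest. Among retinas with *Xist* the range was 22.2 to 25.7 FPKM under NL and 40.2 to 41.3 FPKM after LD. Among those without it the range was 21.6 to 23.3 and 28.2 to 49.3 FPKM. Both subsets had to be apart, since the groups as a whole did not overlap. With the 3 closest pairs averaged, so that 4 NL and 3 LD samples remained, the log2 fold change was 0.74 (adjusted p = 0.0232). Under the 23 alternative settings tried it was 0.56 to 0.80, with adjusted p-values of 0.00191 to 0.0428. *Basp1*, which encodes a growth cone protein of a related kind, went from 92.6 ± 12.1 to 117 ± 14.3 FPKM (log2 fold change 0.34, adjusted p = 0.0361), higher at the looser limit, and was named after its values were seen.

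*Sox11* (ENSMUSG00000063632, chr12:27334264-27342574, minus strand) encodes a transcription factor of young neurons that returns in injured ganglion cells. Its level was 0.591, 0.810, 0.605, 0.493 and 0.816 FPKM under NL and 1.23, 1.19, 1.23, 1.23 and 0.730 FPKM after LD. LD-1, LD-4, LD-6 and LD-7 were above all NL retinas, while LD-8 was below NL-4 and NL-8, so that the groups overlapped through that retina. The log2 fold change was 0.68 (SE 0.19, 95% interval 0.26 to 1.10, adjusted p = 0.0222, exact permutation p = 0.0238), from means of 0.663 ± 0.144 and 1.12 ± 0.220 FPKM on 87 to 175 and 135 to 250 reads. LD-8, the lowest LD retina for *Sox11*, was the highest for *Gap43*. NL-4 and NL-8, the highest NL retinas, were those with *Xist*. Among retinas with *Xist* the levels were 0.810 to 0.816 FPKM under NL and 1.19 to 1.23 FPKM after LD. Among the others they were 0.493 to 0.605 and 0.730 to 1.23 FPKM, with no overlap within either. These subsets hold only 2 and 3 retinas per group, and the separation within them was not tested. With *Xist* as a covariate the adjusted p was 0.0123. *Sox11* did not pass an adjusted p of 0.05 in 7 of 22 alternative settings, among them the averaging of the closest pairs (0.53, adjusted p = 0.189), and without LD-8 it was at 0.81 (adjusted p = 0.00587).

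*Sprr1a* (ENSMUSG00000050359, chr3:92483952-92485895, minus strand) encodes a small proline-rich protein of the outer layers of the skin that adult sensory and ganglion neurons make after axon injury. It was at the limit of detection in both groups. The 5 NL retinas held 5, 0, 0, 0 and 0 reads (0.290 FPKM in NL-1 and 0 in the others), and the LD retinas held 1, 5, 4, 7 and 2 reads (0.0509, 0.306, 0.222, 0.381 and 0.111 FPKM). All 5 LD retinas and 1 NL retina had a read, and NL-1 lay within the LD range. At 3 reads, the limit that a count of 0 allows, the level would be 0.144 to 0.183 FPKM in the 4 NL retinas at 0, a limit that covers counting error only.

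The log2 fold change of *Sprr1a* on the scale with a pseudocount was 1.14 (95% interval 0.12 to 2.15, adjusted p = 0.0936, exact permutation p = 0.0635), past neither limit. It passed the filter through 4 LD retinas and 1 NL retina, and its value ran from 0.20 to 3.22 over 20 alternative settings, of which 3 took it past the looser limit. These were leaving out NL-1 (1.53, adjusted p = 0.0102), a pseudocount of 0.01 (3.22, adjusted p = 0.0439) and TPM (2.34, adjusted p = 0.0490). In NL-1, *Ecel1*, an endopeptidase of injured neurons, was also high, at 0.935 FPKM (70 reads) where the other 4 held 0.0404 to 0.122 FPKM, as was *Gfap*, the intermediate filament of reactive glia, at 23.1 against 7.24 to 10.5 FPKM. Other injury genes went both ways in NL-1. It was the lowest NL retina for *Gap43* (21.6 FPKM) and *Basp1* (81.3 FPKM) and the highest for *Stat3* (14.9 FPKM) and *Gal* (1.38 FPKM). All of these comparisons were chosen after the values were seen, and the cause of the *Sprr1a* reads in NL-1 was not tested.

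A list of 17 close relatives of the 10 genes held 7 of the other genes of the small proline-rich family, and these 7 were listed at 0 in every retina. Since *Sprr1a* is known best from surface epithelia, 8 markers of cornea and surface epithelium were read beside it. Of these, 2 passed the filter and could be tested, and neither was called, though *Krt15*, a basal keratin, was lower at the looser limit (log2 fold change -0.86, adjusted p = 0.0483). The 8 summed to 0.392 to 0.644 FPKM in NL and 0.132 to 0.622 FPKM in LD retinas, and *Krt12*, the keratin that defines the cornea, had at most 4 reads in any retina.

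The region upstream of *Sprr1a* is shown because *Atf3* and *Jun*, which encode partners of the AP-1 family of transcription factors, were called higher among the injury genes described further on. RefSeq promoters (GRCm38.p6, 250 bases before to 50 after the gene start) were at hand for 5 of the 10 genes, *Sprr1a*, *Sox11*, *Sncg*, *Opn4* and *Pou4f1*. The AP-1 letters TGANTCA, which read the same on both strands, were found in 1 of the 5, that of *Sprr1a*, at 146 and 116 bases before the start. They were in 7.81% of 32851 promoters, and at least 2 times in 0.460%. A match of letters is a description and not a site of binding. The 100 bases from 170 to 71 before the start (GRCm38.p6 chr3:92485952-92486051, minus strand, with both matches in capitals) were:
Sprr1a: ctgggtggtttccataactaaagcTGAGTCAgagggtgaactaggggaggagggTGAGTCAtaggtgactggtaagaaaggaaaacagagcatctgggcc

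The wider set of ganglion cell genes held 20 others, all above the filter, with a median log2 fold change of 0.00. Of these, 17 were not called, 2 were called higher and 1 lower, beside 4.13% and 2.37% of all genes tested. At the looser limit 3 of the 20 were higher and 3 lower, beside 14.5% and 13.4% of all genes tested, and 14 did not pass it. The most abundant of them, *Cartpt*, a neuropeptide gene of some ganglion cells, had means of 67.7 ± 12.7 and 80.0 ± 11.5 FPKM (adjusted p = 0.235). Among widely used markers, *Slc17a6*, the glutamate transporter of their synapses, was at 11.7 ± 1.23 and 11.8 ± 0.857 FPKM, and *Pou4f2*, a partner of *Pou4f1*, at 5.21 ± 0.765 and 4.64 ± 0.343 FPKM (adjusted p = 0.910 and 0.292). Of those past the looser limit, *Chrna6* was lower without overlap, at 31.4 to 35.1 FPKM in NL and 20.9 to 26.2 FPKM in LD retinas. *Ebf3* was higher with overlap, at 4.97 to 6.15 and 6.09 to 7.26 FPKM. The others past it were *Rbpms2*, given above, and the called genes. *Cartpt*, *Slc17a6*, *Pou4f2*, *Chrna6* and *Ebf3* were named after their values were seen.

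The 3 called genes each mark some types of ganglion cell. *Spp1*, which encodes osteopontin and marks the large alpha ganglion cells, was at 2.21, 4.43, 3.38, 3.92 and 2.80 FPKM under NL and at 31.6, 119, 104, 60.1 and 20.2 FPKM after LD. No LD retina came near the NL range, LD-8 being the lowest, and the log2 fold change was 4.02 (SE 0.45, adjusted p = 9.73e-05). Osteopontin is made by microglia and macrophages as well, and 4 of the 6 markers of those cells were called higher (*C1qa*, *Cx3cr1*, *Aif1* and *Ptprc*). The other 2 passed neither limit, the lowest at a log2 fold change of -0.74. Summed, the 6 reached 14.0 to 23.0 FPKM in NL and 27.2 to 67.5 FPKM in LD retinas. Their part in the *Spp1* values was not tested. *Kcng4*, a potassium channel subunit of the same alpha cells, went from 8.34 ± 1.92 to 20.8 ± 5.32 FPKM without overlap (log2 fold change 1.30, SE 0.20, adjusted p = 8.24e-04). It lost the call, though not the looser limit, with the closest pairs averaged (adjusted p = 0.0177) and with the replicate block on 8 retinas (adjusted p = 0.0284).

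*Jam2*, an adhesion protein of one type of direction-selective ganglion cell and of vessels, was the gene called lower. It was at 31.0, 24.1, 30.7, 28.7 and 29.0 FPKM under NL and at 14.8, 11.1, 11.7, 13.6 and 12.8 FPKM after LD, and the groups were far apart. The log2 fold change was -1.16 (SE 0.09, adjusted p = 8.45e-06). None of the 6 markers of vessels was called, 1 was higher at the looser limit, and they summed to 40.2 to 51.0 FPKM in NL and 55.7 to 92.7 FPKM in LD retinas. In the same comparison the rod markers fell (median log2 fold change -2.22), as did the Müller glia marker *Glul* (-2.09). Which cells the *Jam2* RNA came from was not tested.

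The list of melanopsin cell and melanopsin signalling genes had 8 genes, none of them called, where 6.51% of all genes tested were. Of all genes tested, 14.5% were higher at the looser limit. At the looser limit 2 were higher, named here after their values were seen: *Plcb4*, the phospholipase of the melanopsin cascade, at 17.4 ± 0.195 and 22.6 ± 2.74 FPKM (log2 fold change 0.36, adjusted p = 0.00402), and *Gna14*, a G protein subunit, at 0.894 ± 0.206 and 2.40 ± 1.56 FPKM (log2 fold change 1.13, adjusted p = 0.0424). The *Gna14* mean was carried by LD-4 and LD-6 at 4.61 and 3.50 FPKM, while LD-1, LD-7 and LD-8 lay between 1.14 and 1.44 FPKM. *Gna11*, the most abundant gene of the list, was at 20.4 ± 0.619 and 22.1 ± 1.60 FPKM (adjusted p = 0.138).

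Of 12 axonal cytoskeleton genes, 11 were not called, where 6.51% of all genes tested were called. The exception was *Prph*, the gene of peripherin, an intermediate filament of peripheral and some central neurons that assembles with neurofilaments. It was at 1.26, 0.895, 1.33, 0.730 and 1.14 FPKM under NL and at 15.9, 12.7, 12.6, 18.0 and 7.21 FPKM after LD, a log2 fold change of 3.48 (SE 0.24, adjusted p = 3.22e-06) with no overlap. The heavy neurofilament gene *Nefh* was at 22.0 ± 2.72 and 21.6 ± 1.49 FPKM and alpha-internexin, *Ina*, at 32.1 ± 2.57 and 31.7 ± 4.39 FPKM, both with adjusted p-values above 0.8 and both named after their values were seen. Among the neuronal intermediate filament genes of these lists, *Prph* was thus the one called, from the lowest NL level of the group. At the looser limit *Map1b* and *Map2*, which encode microtubule-associated proteins, were lower (log2 fold change -0.43 and -0.62), both named after their values were seen. Of all genes tested, 13.4% were lower at that limit.

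**Figure D3:**
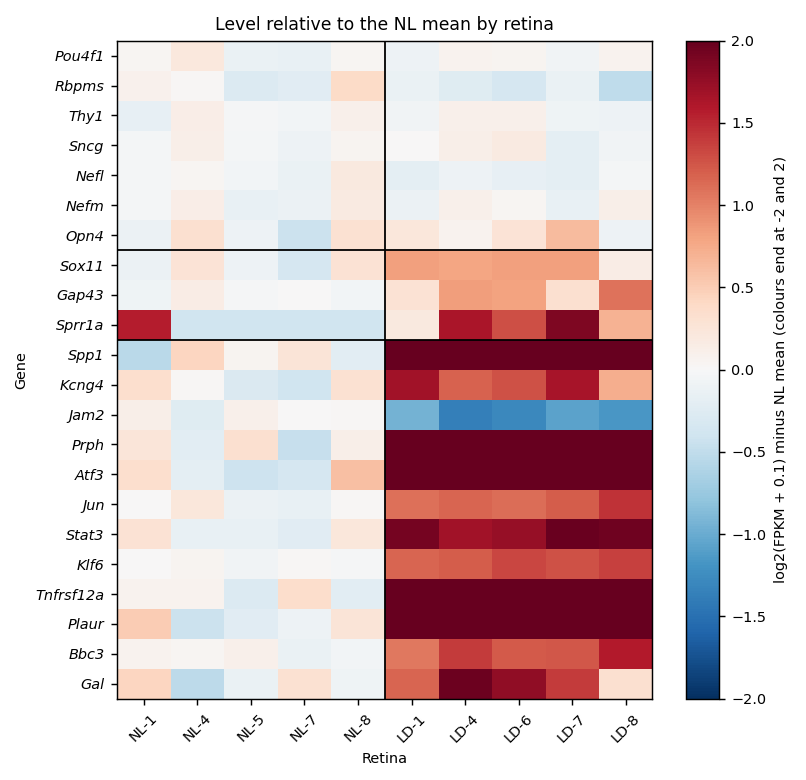
Columns are the 10 retinas and rows the 10 genes described here followed by the 12 other ganglion cell, cytoskeletal and injury genes that were called, with black lines between identity genes, injury genes and the others. Colour gives log2(FPKM + 0.1) minus the NL mean, from blue (lower) to red (higher), and ends at -2 and 2. The identity genes run from -0.52 (*Rbpms* in LD-8) to 0.63 (*Opn4* in LD-7). *Gap43* lies above the NL mean in all LD retinas, from 0.29 in LD-1 to 1.09 in LD-8. *Sox11* is at 0.78 to 0.83 in 4 of the 5 LD retinas and at 0.14 in LD-8. *Sprr1a* is at 1.57 in NL-1 and at 0.20 to 1.87 in the LD retinas.

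Of 22 other genes of axon injury and regeneration, all above the filter, 8 were called higher and none lower, where 4.13% and 2.37% of all genes tested were. At the looser limit 12 were higher and 1 was lower, beside 14.5% and 13.4% of all genes tested. Their median log2 fold change was 0.36, beside -0.01 over all genes tested. The list was chosen with earlier results of these data known, so these counts are a description and not a test. The transcription factors came first. *Atf3*, a stress factor that injured neurons express early, was at 5.54, 3.80, 3.25, 3.46 and 6.69 FPKM under NL and at 45.6, 34.1, 34.1, 49.7 and 53.4 FPKM after LD (log2 fold change 3.26, SE 0.21, adjusted p = 2.31e-06). *Jun*, its partner in AP-1, went from 17.0 ± 1.81 to 39.3 ± 4.01 FPKM (log2 fold change 1.21), *Stat3*, the mediator of cytokine signals, from 12.3 ± 2.10 to 44.1 ± 3.96 FPKM (1.85), and *Klf6*, a Krüppel-like factor, from 5.65 ± 0.202 to 13.8 ± 0.803 FPKM (1.27). None of these 4 overlapped between the groups.

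Surface receptors and effectors followed. *Tnfrsf12a*, the receptor of the cytokine TWEAK, rose from 3.81 ± 0.688 to 23.0 ± 4.22 FPKM (log2 fold change 2.56) and *Bbc3*, the pro-apoptotic gene of PUMA, from 2.41 ± 0.168 to 6.12 ± 0.888 FPKM (1.30). *Plaur*, the urokinase receptor, held 2 to 9 reads in each NL and 38 to 86 in each LD retina (log2 fold change 2.65). At such low counts its fold change followed the pseudocount, with 0.92, under the 2-fold limit, at a pseudocount of 1 and 3.57 at 0.01. *Gal*, the gene of the neuropeptide galanin, was at 1.02 ± 0.290 and 2.84 ± 1.13 FPKM (log2 fold change 1.32, adjusted p = 0.00787), with LD-8 inside the NL range. Its call is near the limits and was lost in 18 of 23 alternative settings, among them 9 of the 10 that leave out a retina, while it stayed past the looser limit in all but 2. These injury genes are made by several retinal cell types and not by ganglion cells alone, and in whole retina the source cannot be told apart. Of 5 astrocyte markers, *Gfap* and *Aldh1l1* were called higher and the other 3 passed neither limit, the lowest at a log2 fold change of -0.47. The 5, of which *Gfap* was the most abundant under NL, summed to 16.9 to 36.5 FPKM in NL and 79.9 to 152 FPKM in LD retinas. The paper also describes GFAP staining in Müller glia after light, in mice of another strain and after longer exposure, so *Gfap* is not tied to astrocytes alone. Most of the microglial markers given above were called higher as well. Of 6 Müller glia markers, *Glul*, glutamine synthetase, was called lower (log2 fold change -2.09), 1 was higher and 2 including *Glul* were lower at the looser limit, and the 6 summed to 1054 to 1291 FPKM in NL and 502 to 704 FPKM in LD retinas. The part of these 3 glial types in the injury gene values was not tested.

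**Figure D4:**
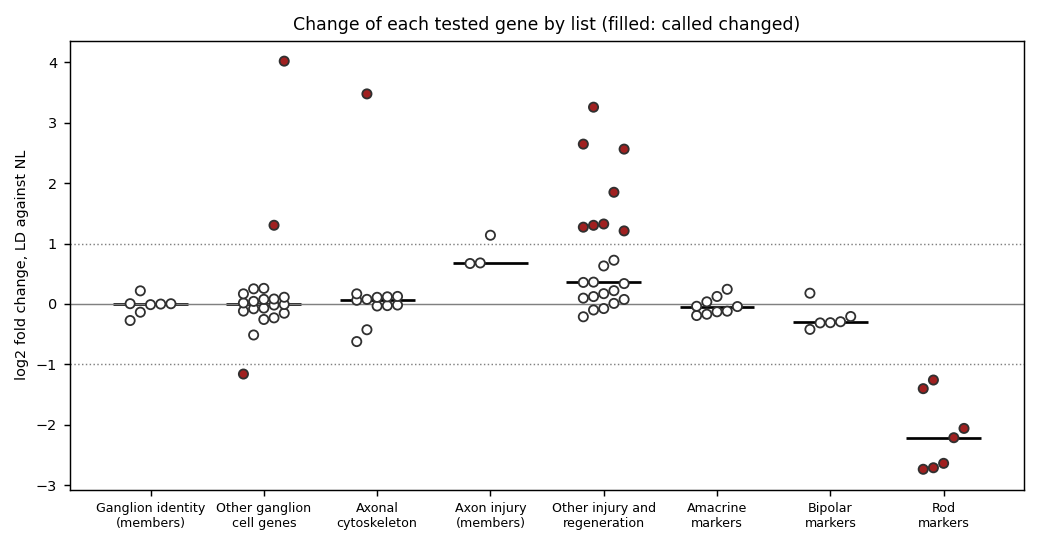
Each point is a tested gene, placed by list, with the log2 fold change of LD against NL on the vertical axis, filled red where it was called and open where it was not, and the black line is the median of the list. Dotted lines mark a 2-fold change. The ganglion identity genes lie around 0 with a median of -0.00 and the amacrine markers with one of -0.04, whereas the rod markers lie at -2.22 and the other injury genes spread upward from a median of 0.36.

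The other neurons of the inner retina were read the same way. None of 9 amacrine markers and none of 6 bipolar markers was called, where 6.51% of all genes tested were. Their median log2 fold changes were -0.04 and -0.30. At the looser limit no amacrine and 1 bipolar marker, *Vsx1*, passed, lower, where 27.8% of all genes tested passed. The amacrine markers summed to 151 to 181 FPKM in NL and 138 to 171 FPKM in LD retinas and the bipolar markers to 250 to 326 and 198 to 298 FPKM. None of 4 horizontal cell markers was called, and at the looser limit 1 was higher and 1 lower, with sums of 24.4 to 33.1 and 26.1 to 35.1 FPKM. The 7 identity genes summed to 229 to 269 and 221 to 255 FPKM, with overlapping groups. The 3 injury genes, of which *Gap43* made up nearly all, summed to 22.5 to 26.5 and 29.5 to 50.1 FPKM.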

How the data were processed

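Neural retina RNA was sequenced from 10 retinas. The deposited values were FPKM per gene and retina, for 54532 genes with GRCm38 positions and lengths. The submitters' processing notes name TopHat2 2.0.9, Bowtie2 2.0.6 and the build mm8, but all 10 members have the position of GENCODE M21. The paper names a HiSeq instrument and the series' design text a NovaSeq. The counting program and its use of strand are not given in the sources used here. Multiplied by gene length, the values fell on steps of 1 read, from which reads and a factor per retina were recovered.

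Retinas were grouped by their titles. The fit of LD against NL used limma 3.58.1 (R 4.3.3) with an intensity trend and no block, after a pseudocount of 0.1. Exact permutation tests were two-sided. Scripts used Python 3.11.15, numpy 2.4.6, pandas 2.3.3 and matplotlib 3.10.9, and the model was tested on simulated data. Named genes were the 10 members and, of other lists, every called gene or, with none called, the most abundant, while cell type markers were named where their level stands beside a member's result. Exceptions are marked in the text. Members and lists were chosen with earlier results of these data known. Alternatives changed the pseudocount, filter, scaling, trend, test, threshold, block, *Xist* covariate and retinas included. At low FPKM the pseudocount shrinks fold changes. Intervals on depth cover counting error only.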

Additional observations from a re-analysis of the deposited data

Results flagged for a closer look

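In 44 groups of 5 retinas looked at (the 10 members and the 12 genes called in the lists of other ganglion cell, axonal cytoskeleton and other injury genes), 2 had 1 retina far from the other 4 by Dixon's test at the 95% level, where chance gives about 2.2 (1 in 20 groups). *Sox11* in LD-8 was at 0.730 FPKM (135 reads), and the other LD retinas lay at 1.19 to 1.23 FPKM. *Sprr1a* in NL-1 was at 0.290 FPKM (5 reads), and the other NL retinas were at 0. With the others at 0, any reads in NL-1 would have been flagged, and the chance figure does not allow for such ties. The cause was not tested.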

How the results depend on the processing

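The number of genes called changed was 1595, and it was 816 with a pseudocount of 1, 772 with the replicate block on the 8 retinas whose numbers both groups share (1076 on the same 8 retinas without it), 1076 with the closest pairs averaged and 6818 at an adjusted p under 0.05 with no minimum fold change. Leaving out each retina in turn gave 1386 to 1609 genes. No identity gene was called in any setting, and of the injury genes 2 passed when the threshold was an adjusted p under 0.05 alone and none in the other settings. The share of called genes that were higher was 63.5%, and it was 71.9% in TPM and 72.1% without the factor per retina. 

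Retinas of the same number did not deviate together (correlation of deviations -0.0893 to 0.0656 over 4 pairs, with 1 NL retina correlating best with its own number), so the block joins retinas that share a number and no more. *Sox11* was at 0.62 with the replicate block (adjusted p = 0.190) and at 0.62 without it on the same 8 retinas (adjusted p = 0.102). Leaving out NL-5, NL-7, LD-4 or LD-6 took its adjusted p to 0.0506 to 0.0544, and a pseudocount of 1 gave a log2 fold change of 0.35. *Gal* did not pass 0.05 with the block (adjusted p = 0.0853) or with the pairs averaged (0.0735).

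Of the identity genes, 4 with a log2 fold change close to 0 crossed it in some settings, with no adjusted p under 0.2, and the cause was not tested. *Pou4f1* was at -0.045 with and without the block on the 8 retinas, at -0.020 with the pairs averaged and at -0.033 to 0.054 with each retina left out. *Sncg* was at -0.048, -0.025 and -0.040 to 0.054 in the same settings. *Thy1* was at 0.092 in TPM, 0.12 without the factor per retina, 0.012 after quantile normalization, 0.0048 by limma-voom on the recovered reads and -0.052 to 0.021 with each retina left out. *Nefm* was at 0.10, 0.13, 0.0087, 0.013 and -0.039 to 0.041 in the same settings. *Rbpms*, *Nefl* and *Opn4* kept their direction in all 23 settings.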
